A study of Mus musculus with 5 samples.

Results

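The cardiac sarcomere genes described here were a list of 34 genes that encode the thick filament, the thin filament, titin, the Z-disc and the M-band of heart muscle, together with factors that fold these proteins or assemble them. The genes were listed by function, with earlier results of these data known. Tags of 32 of the 34 genes were found, out of 13486 genes with a tag in any library. Myom2, an M-band protein, and Xirp2, an actin-binding protein, had no tag in any library. Tcap, the titin cap, was found only in the Twist1 null library, so 31 of the genes were found in each wild-type library.

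The data were 5 Tag-seq libraries of mouse heart at embryonic day 10.5 (E10.5), with 1 library per condition. 4 libraries were from wild-type C57BL/6 embryos and held the atrioventricular canal (AVC, 25 pooled embryos), the outflow tract (OFT, 25 embryos), the atria (20 embryos) and the ventricles (20 embryos). The last library held AVCs of 8 Twist1 knockout embryos of the ICR strain. These embryos lacked a functional gene for Twist1, a basic helix-loop-helix transcription factor found in the cushion mesenchyme. Strain and genotype therefore changed together in the comparison of null and wild-type AVC and cannot be told apart. No library had a replicate, so each test below compared libraries, not conditions.

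The sarcomere is the contractile unit of striated muscle. Myosin heavy chains and their light chains form the thick filament. Actin, tropomyosin and the troponin complex form the thin filament, on which troponin C binds calcium, troponin I inhibits contraction and troponin T ties the complex to tropomyosin. Titin runs from the Z-disc, which anchors thin filaments, to the M-band, which joins thick filaments. Several of these proteins have paralogs that become restricted to the atria or to the ventricles as the heart matures, among them the atrial light chains Myl7 and Myl4 and the ventricular light chains Myl2 and Myl3. Cardiomyocytes are the main source of these transcripts in the heart, whereas the AVC and the OFT also hold endocardial cushions filled with mesenchyme.

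In Tag-seq, cDNA on oligo(dT) beads is cut by NlaIII at CATG and a short tag next to a cut is sequenced. In the files a tag is the 17 bases after CATG, with its count. A cut transcript gives 1 tag whatever its length, so TPM (tags of a gene per 1000000 tags of its library) were compared between genes without a length correction. Which paralog a tag named turned on single bases in the tag. The most abundant tags of both cardiac myosin heavy chains, shown with the base that separates them in capitals, were these.
Myh6: catgaggaagagCgagcggcg
Myh7: catgaggaagagTgagcggcg
They differed by the substitution C13T, counted from 1 at the 5′ end of the 21-base tag. Both lay in coding sequence on the minus strand, at chr14:54944300-54944320 for Myh6 and chr14:54972710-54972730 for Myh7 (GRCm38). The striated actins were separated in the same way.
Actc1: catgaagatcaagatTatTgc
Acta1: catgaagatcaagatCatCgc
Acta2 and Actb: catgaagatcaagatCatTgc
Cardiac actin Actc1 and skeletal actin Acta1 differed by T16C and T19C. The third tag, shared by Acta2, Actb and Lrrc58, differed from that of Actc1 by T16C alone and was counted for no gene. The Actc1 tag spanned chr2:114047602-114048135 and the Acta1 tag chr8:123892145-123892241, both across an intron and on the minus strand. Because 1 base separated the Myh6 and Myh7 tags, a sequencing error at that base would move a tag between these paralogs. Between Actc1 and Acta1 an error at both differing bases would be needed. The shared tag differed from that of Acta1 by C19T alone, so 1 error could move a tag between those. In the AVC the shared tag was at 1453 TPM and the Acta1 tag at 151 TPM.

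The tags that carried the other paralog pairs, tropomyosin and titin were more distinct. Capitals mark the NlaIII site.
Myl7: CATGgacctggccggcaacat
Myl2: CATGgaccagaacagagacgg
Myl4: CATGgcttctctgacccacaa
Myl3: CATGtctggagcttcgggaag
Tnni3: CATGgctcccacactgtgctc
Tnni1: CATGctggggttatccagtca
Tnnt2: CATGatgcactttggagggta
Tnnt1: CATGacctgctgtgtggagcc
Tpm1: CATGaaagtcattgaaagccg
Ttn: CATGccagtatatgttcaatt
The tags of Myl7 (chr11:5896735-5896755, minus strand), Myl2 (chr5:122102707-122102727, plus strand), Tnnt2 (chr1:135849430-135849450, plus strand) and Tpm1 (chr9:67033970-67033990, minus strand) lay in coding sequence. Those of Myl4 (chr11:104587153-104587173), Myl3 (chr9:110769630-110769650) and Tnni1 (chr1:135810832-135810852) lay in a 3′ UTR on the plus strand. Those of Tnni3 (chr7:4518345-4518365), Tnnt1 (chr7:4504723-4504743) and Ttn (chr2:76704047-76704067) lay in a 3′ UTR on the minus strand. Each of these tags came from the last NlaIII site of at least 1 transcript of its gene. For Tpm1, 6 transcripts carried a further site nearer to the 3′ end, and another such site was carried by 2 transcripts. The Tpm1 tag was carried by 10 of its transcripts, so the count did not separate tropomyosin isoforms.

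The libraries held between 4223810 and 12977237 tags, and a tag type was kept in the files only above 5 tags. A gene at 0 could therefore have up to 5 tags of any tag type, which is 0.385 TPM in the deepest library and 1.18 TPM in the shallowest. Between 70.7% and 74.5% of tags matched 1 gene in sense. Haemoglobin took 21.5% of the tags of the atria, 4.67% of the ventricles, 2.73% of the Twist1 null AVC, 0.242% of the AVC and 0.307% of the OFT. The region labels were checked on genes outside the list, of which those named were picked after their values were seen. Bmp2, the most abundant AVC marker checked in the AVC library, was at 220 TPM there and at no more than 27.1 TPM in the other wild-type libraries. Isl1 was at 72.9 TPM in the OFT and at no more than 2.30 TPM in the other wild-type libraries. Of the other OFT genes checked, Sema3c was at 158 TPM in the OFT and 36.4 TPM in the AVC. Rspo3 hardly separated them, at 61.9 TPM in the OFT and 56.3 TPM in the AVC. All 6 ventricular genes checked were higher in the ventricles than in the atria, although Irx4 was at only 2.84 TPM in the ventricles. Among them were the natriuretic peptide Nppb (3754 and 871 TPM), Gja1 (216 and 54.0 TPM) and Hey2 (46.4 and 4.71 TPM). Against the AVC the list was mixed. Irx4 (27.2 TPM), Kcne1 (50.4 against 18.2 TPM) and Hey2 (51.0 TPM) were higher in the AVC than in the ventricles. Nppb, Gja1 and Irx5 were lower in the AVC. Of 6 atrial genes, 4 were higher in the atria than in the ventricles, led by Stard10 (272 and 14.7 TPM) and Nr2f2 (190 and 48.8 TPM). Sln, another of the 4, was at no more than 1.71 TPM in any library. Nppa and Tbx5 were not higher in the atria, and Nppa was at 316 TPM in the AVC and 18.2 TPM in the atria.

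Sarcomere transcripts made up a similar share of the AVC, OFT and ventricles and a smaller share of the atria. The list summed to 3.39% of tags in the AVC (95% exact binomial interval 3.37 to 3.40), 3.64% in the OFT (3.63 to 3.66), 3.14% in the ventricles (3.12 to 3.15) and 1.29% in the atria (1.28 to 1.30). In the Twist1 null AVC it was 2.84% (2.83 to 2.85). Such intervals cover counting error only, since PCR copies of a molecule are not separate molecules. Leaving haemoglobin tags out of the totals raised the share to 1.65% in the atria and 3.29% in the ventricles. In these bulk samples fewer cardiomyocytes and less RNA of a gene per cardiomyocyte cannot be told apart.

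The make-up of the sarcomere sums also differed. Actc1 alone was 44.7% of the sarcomere tags of the atria and 44.2% of those of the ventricles. It was 18.6% for the AVC, 17.5% for the OFT and 31.5% for the Twist1 null AVC. Its level was 6283 TPM in the AVC, 6370 TPM in the OFT, 5782 TPM in the atria, 13856 TPM in the ventricles and 8933 TPM in the null AVC. Without Actc1 the list summed to 27571 TPM in the AVC and 30053 TPM in the OFT but to 7151 TPM in the atria and 17522 TPM in the ventricles. 9 genes of the list exceeded 1000 TPM in the AVC, and the OFT had 7 such genes, the ventricles 6 and the atria 2.

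**Figure D1:**
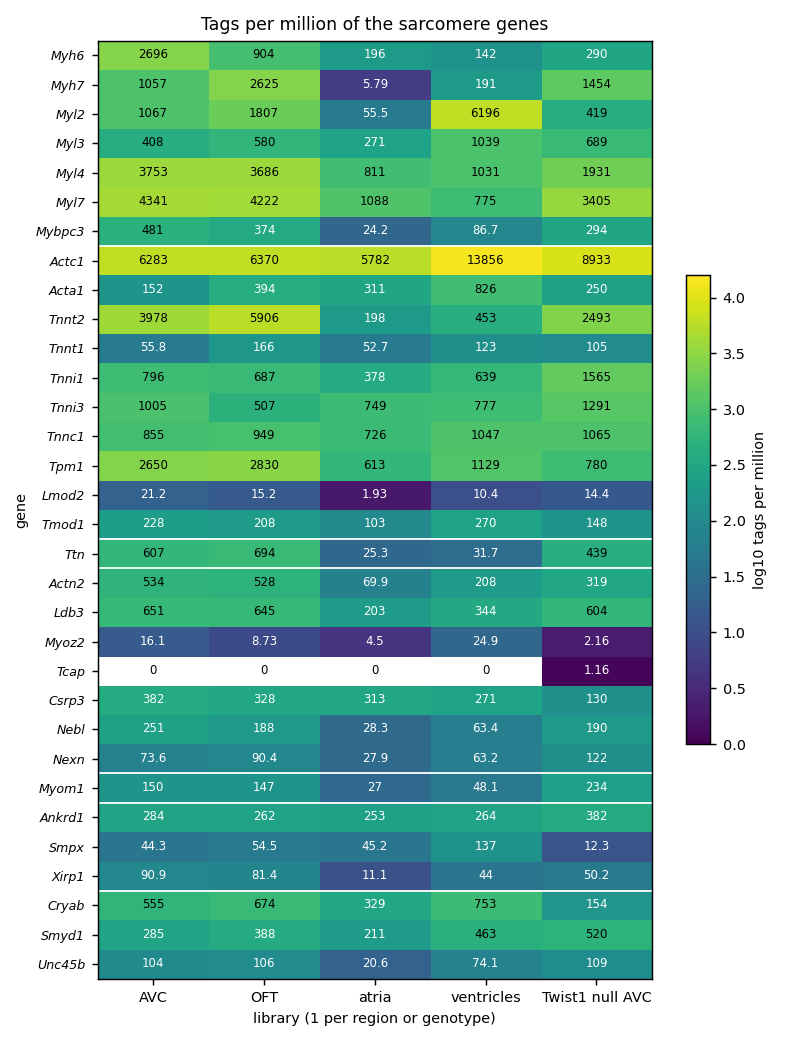
Level of each of the 32 sarcomere genes found, in TPM, in each of the 5 libraries; rows are genes grouped by role with white lines between groups, columns are libraries, colour is log10 of the level and white cells are genes with no tag. Actc1 was the most abundant gene in every column, and the column of the atria held only 2 genes above 1000 TPM.

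Thick filament genes differed widely between the regions. Myh6, the alpha myosin heavy chain, was at 2696 TPM in the AVC, 904 TPM in the OFT, 196 TPM in the atria and 142 TPM in the ventricles. Myh7, the beta chain, was at 1057 TPM in the AVC, 2625 TPM in the OFT and 191 TPM in the ventricles. In the atria it was at 5.79 TPM (27 tags, 95% exact binomial interval 3.81 to 8.42 TPM). Both chains were thus higher in the AVC and in the OFT than in either chamber library, and the chamber libraries differed mainly in Myh7.

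The atrial light chains were also high in the AVC and OFT. Myl7, the atrial regulatory light chain, was at 4341 TPM in the AVC, 4222 TPM in the OFT, 1088 TPM in the atria and 775 TPM in the ventricles. Myl4, the atrial essential light chain, was at 3753 TPM, 3686 TPM, 811 TPM and 1031 TPM in the same order. The ventricular chains ran otherwise. Myl2, the ventricular regulatory light chain, was at 1067 TPM in the AVC, 1807 TPM in the OFT, 55.5 TPM in the atria and 6196 TPM in the ventricles. Myl3, the ventricular essential light chain, was at 408 TPM, 580 TPM, 271 TPM and 1039 TPM in that order, and so was highest in the ventricles. Mybpc3, the cardiac myosin-binding protein C, was at 481 TPM in the AVC, 374 TPM in the OFT, 24.2 TPM in the atria and 86.7 TPM in the ventricles.

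On the thin filament only some genes differed by region. Tnnt2, cardiac troponin T, was at 3978 TPM in the AVC, 5906 TPM in the OFT, 198 TPM in the atria and 453 TPM in the ventricles. Tnnc1, cardiac troponin C, was at 855 TPM, 949 TPM, 726 TPM and 1047 TPM in that order, and Tnni3, cardiac troponin I, was at 1005 TPM, 507 TPM, 749 TPM and 777 TPM. The 3 troponins of 1 complex therefore did not share a pattern across the libraries. Tpm1, tropomyosin 1, was at 2650 TPM in the AVC, 2830 TPM in the OFT, 613 TPM in the atria and 1129 TPM in the ventricles. Tmod1, which caps the pointed end of the thin filament, kept between 103 and 270 TPM in the wild-type libraries.

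Titin had the widest ratio between the AVC and the summed chambers. Ttn was at 607 TPM in the AVC and 694 TPM in the OFT. In the atria it was at 25.3 TPM (95% exact binomial interval 20.9 to 30.3) and in the ventricles at 31.7 TPM (26.6 to 37.6). Among Z-disc genes, Actn2, the cross-linker alpha-actinin, was at 534 TPM in the AVC, 528 TPM in the OFT, 69.9 TPM in the atria and 208 TPM in the ventricles. Nebl, which binds actin at the Z-disc, was at 251 TPM, 188 TPM, 28.3 TPM and 63.4 TPM in the same order. Csrp3, a LIM protein of the Z-disc, stayed between 271 and 382 TPM in the wild-type libraries. Myom1, which links thick filaments at the M-band, was at 150 TPM in the AVC, 147 TPM in the OFT, 27.0 TPM in the atria and 48.1 TPM in the ventricles.

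The AVC was compared with the atria and ventricles summed, with a dispersion fixed at 0.12 in a two-sided edgeR exact test, and a gene was called at an unadjusted p under 0.05. For an abundant gene, with at least 500 tags on either side, the smallest fold called higher was 2.73. Of 31 sarcomere genes tested, 13 were called higher and 2 lower in the AVC. That share of higher calls was near the background, since 43.4% of all 12503 genes tested were called higher and 8.12% lower. The median log2 ratio was 0.72 for the sarcomere genes and 1.23 for all genes tested, so that most genes were higher in the AVC under this scaling. With TMM normalization, which moved the median of all genes to 0.28, the sarcomere calls were 6 higher and 6 lower, against 25.6% and 17.5% of all genes.

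The genes called higher in the AVC included titin, both myosin heavy chains and their binding protein. Ttn was 21.4-fold higher (p = 9.6e-08, edgeR exact test), Myh6 15.8-fold (p = 8.3e-07), Tnnt2 12.5-fold (p = 4.7e-06), Myh7 11.3-fold (p = 1.0e-05) and Mybpc3 8.93-fold (p = 5.3e-05). These 5 calls held under every alternative tried. Nebl was 5.58-fold higher, with p = 0.0011 by the exact test, and also stayed called with TMM. Myl7 (4.62-fold), Myl4 (4.10-fold), Myom1 (4.06-fold), Actn2 (3.95-fold), Lmod2 (3.56-fold), Xirp1 (3.39-fold) and Tpm1 (3.09-fold) were called with unscaled totals, and none of the 7 was called with TMM. Against the ventricles alone Actn2, Lmod2, Xirp1 and Tpm1 were not called, with log2 ratios of 1.36, 1.03, 1.04 and 1.23, whereas all 4 were called against the atria alone. Lmod2 elongates thin filaments and Xirp1 binds actin at the intercalated disc.

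Acta1 and Myl2 were lower in the AVC. Acta1 was at 152 TPM in the AVC, 311 TPM in the atria and 826 TPM in the ventricles, 3.66-fold lower than the sum of both (p = 0.012, edgeR exact test), but it was not called against the atria alone (log2 ratio -1.03). Myl2 was 2.79-fold lower (p = 0.044, exact test), and the direction rested on the ventricles, because the AVC was higher than the atria alone by 4.26 on the log2 scale. With TMM, Actc1, Myl3, Smpx and Tnnt1 were also called lower. The log2 ratio of Actc1 was -0.61 with unscaled totals and -1.57 with TMM.

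**Figure D2:**
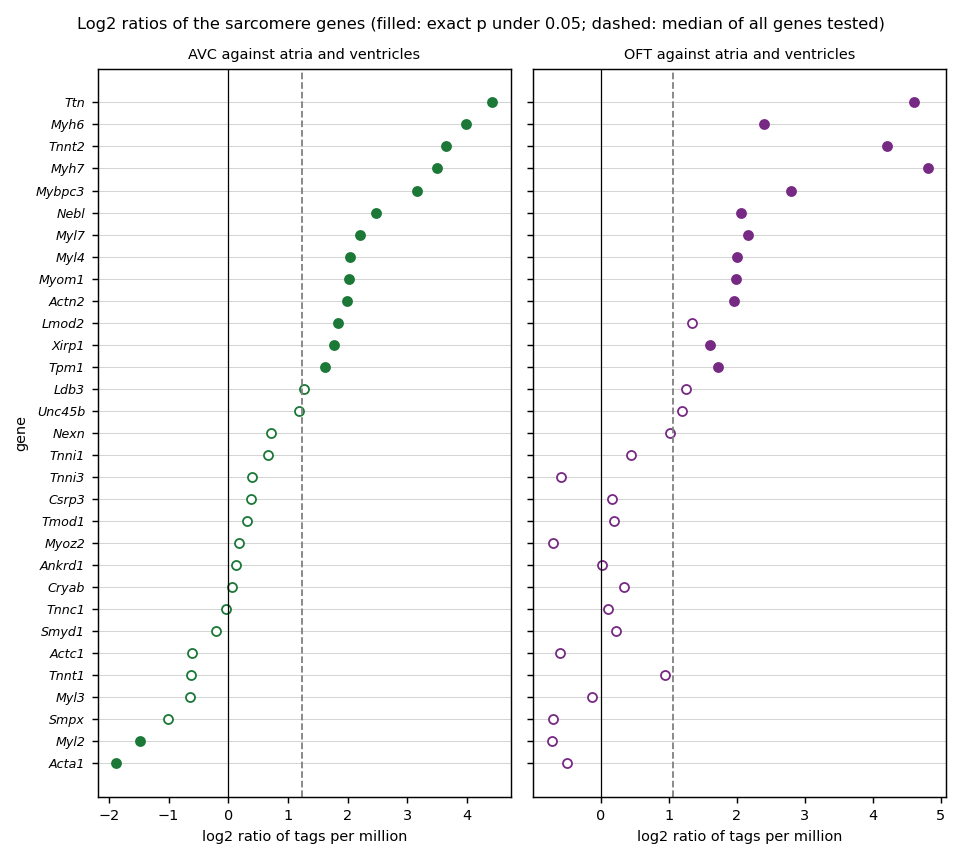
Log2 ratio of TPM for each of 31 sarcomere genes in the AVC (left) and in the OFT (right) against the atria and ventricles summed; filled points had an exact p under 0.05 and the dashed line is the median of all genes tested (1.23 and 1.07). Ttn, Myh6, Myh7, Tnnt2 and Mybpc3 lay farthest to the right on both sides, and only Acta1 and Myl2, on the left side, were filled below 0.

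The OFT was compared with the same chamber libraries, so that both comparisons share their control. 12 of 31 sarcomere genes were called higher and 0 lower by the edgeR exact test at an unadjusted p under 0.05, against 40.6% higher and 8.88% lower of all 12451 genes tested. The sarcomere median was 1.02 and that of all genes 1.07 on the log2 scale. Myh7 was 28.02-fold higher (p = 1.1e-08, exact test), Ttn 24.5-fold, Tnnt2 18.5-fold, Mybpc3 6.94-fold and Myh6 5.30-fold. With TMM, 5 sarcomere genes were called higher and 5 lower, against 26.2% and 17.7% of all genes. The lower ones were Actc1, Myl2, Myoz2, Smpx and Tnni3, and the higher ones were the 5 genes just named. The calls of Actn2, Xirp1 and Tpm1 were lost against the ventricles alone, with log2 ratios of 1.34, 0.89 and 1.33. Myl2, not called against the sum, was called lower against the ventricles alone (log2 ratio -1.78) and higher against the atria alone (5.02).

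The OFT and AVC were also compared directly, and few genes were called, of the sarcomere list or of all genes. 1 of 31 sarcomere genes was called higher in the OFT and 1 lower (3.23% each, edgeR exact test). Of all 12541 genes tested, 5.22% were called higher and 7.35% lower. For an abundant gene the smallest folds called were 2.74 higher and 2.98 lower, so smaller differences went uncalled. Myh6 was 2.98-fold lower in the OFT (p = 0.032, exact test), and Tnnt1, the slow skeletal troponin T, was 2.98-fold higher, with 166 TPM against 55.8 TPM (p = 0.034). Neither call held after Benjamini-Hochberg adjustment over all genes. Myh7 was 2.48-fold higher in the OFT and did not pass (p = 0.072, exact test). With TMM, 2 sarcomere genes were called higher (Tnnt1 and Acta1) and 1 lower, against 6.39% and 6.24% of all genes.

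Transcript length moved with the chamber comparisons. Over the 31 genes, the longest reference transcript and the log2 ratio of AVC to chambers had a Spearman correlation of 0.56, given as a description since the points share libraries. The 8 genes of at least 4000 bases, among them Ttn, Myh6, Myh7 and Mybpc3, had a median log2 ratio of 2.82, and the 16 genes under 2000 bases a median of 0.13. Tnnt2, with 1200 bases, was a short gene among the highest ratios. Over all 9187 genes with at least 50 tags the correlation was 0.23, with medians of 1.39 for the long and 0.49 for the short genes. In the OFT comparison the correlation over the sarcomere genes was 0.57, whereas it was 0.12 between ventricles and atria and -0.14 between OFT and AVC. Its part in the chamber comparisons was not tested. Length was examined after the levels had been seen.

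Markers of other cell types also differed between the regions, not all in the same direction. The summed level of 12 cushion mesenchyme markers was 3504 TPM in the AVC and 4207 TPM in the OFT against 421 TPM in the atria and 436 TPM in the ventricles, with Col3a1 the most abundant in the AVC and OFT. The 14 erythroid markers summed to 2428 TPM in the AVC, 3083 TPM in the OFT, 215380 TPM in the atria and 46723 TPM in the ventricles. For 12 endothelial markers the sums were 604 TPM in the AVC, 640 TPM in the OFT, 349 TPM in the atria and 422 TPM in the ventricles. For 9 epicardium markers they were 303 TPM, 134 TPM, 365 TPM and 347 TPM in that order, and so higher in the chambers. Their part in the sarcomere ratios was not tested.

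The chambers were compared with each other to describe their isoforms. In the ventricles 10 of 31 sarcomere genes were called higher than in the atria and 0 lower by the edgeR exact test at an unadjusted p under 0.05, against 11.1% higher and 9.03% lower of all 10705 genes tested. The sarcomere median was 1.20 on the log2 scale and the median of all genes 0.31. With TMM the calls were 8 higher and 0 lower, against 9.16% and 10% of all genes, with a sarcomere median of 0.87.

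Myl2 and Myh7 separated the chambers most. Myl2 had 26170 tags in the ventricles and 259 in the atria, 112-fold higher in TPM (p = 1.7e-13, edgeR exact test), and Myh7 had 806 and 27 tags, 33.0-fold higher (p = 1.1e-08). Both held under every alternative, Benjamini-Hochberg adjustment included. The other 8 genes did not hold after that adjustment. They were Myoz2 (5.52-fold), a calcineurin-binding Z-disc protein, Lmod2 (5.40-fold, on 44 against 9 tags), Xirp1 (3.95-fold), Myl3 (3.84-fold), the myosin chaperone Unc45b (3.60-fold), Mybpc3 (3.58-fold), the small muscle protein Smpx (3.03-fold) and Actn2 (2.98-fold).

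No sarcomere gene was called higher in the atria. The atrial light chain Myl7 was at 1088 TPM in the atria and 775 TPM in the ventricles (log2 ratio -0.49, p = 0.50 by the edgeR exact test), and Myl4 was at 811 and 1031 TPM (log2 ratio 0.35, p = 0.63). Myh6 was at 196 and 142 TPM (log2 ratio -0.47, p = 0.52, exact test). A difference in the levels of Myl7, Myl4 or Myh6 between the chambers was therefore not detectable with this test.

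Within a paralog pair the regions could be compared without any scaling between libraries. Myh6 was 97.1% of the tags of both heavy chains in the atria (95% exact binomial interval 95.9 to 98.1), 71.8% in the AVC (71.3 to 72.4), 42.7% in the ventricles (40.1 to 45.3) and 25.6% in the OFT (24.98 to 26.2). The OFT thus had mostly Myh7 and the AVC mostly Myh6. Myl7 was 95.1% of the tags of Myl7 and Myl2 in the atria and 11.1% in the ventricles, with 80.3% for the AVC and 70.0% for the OFT. For the regulatory light chain, therefore, the OFT and AVC lay nearer to the atria than to the ventricles.

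The AVC and OFT had 90.2% and 86.4% Myl4 among the tags of Myl4 and Myl3, and the atria and ventricles 75.0% and 49.8%. Tnni3 was 66.4% of the tags of Tnni3 and Tnni1, the slow skeletal troponin I of the early heart, in the atria, 55.8% in the AVC, 54.9% in the ventricles and 42.5% in the OFT. The intervals of the AVC (54.9 to 56.7) and the ventricles (53.6 to 56.1) overlapped for this pair. Tnnt1 was 21.1% of the troponin T tags in the atria and 21.3% in the ventricles, with overlapping intervals, and only 1.38% in the AVC and 2.74% in the OFT. Acta1 was 2.36% of the tags of Acta1 and Actc1 in the AVC and between 5.11% and 5.82% in the other wild-type libraries.

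**Figure D3:**
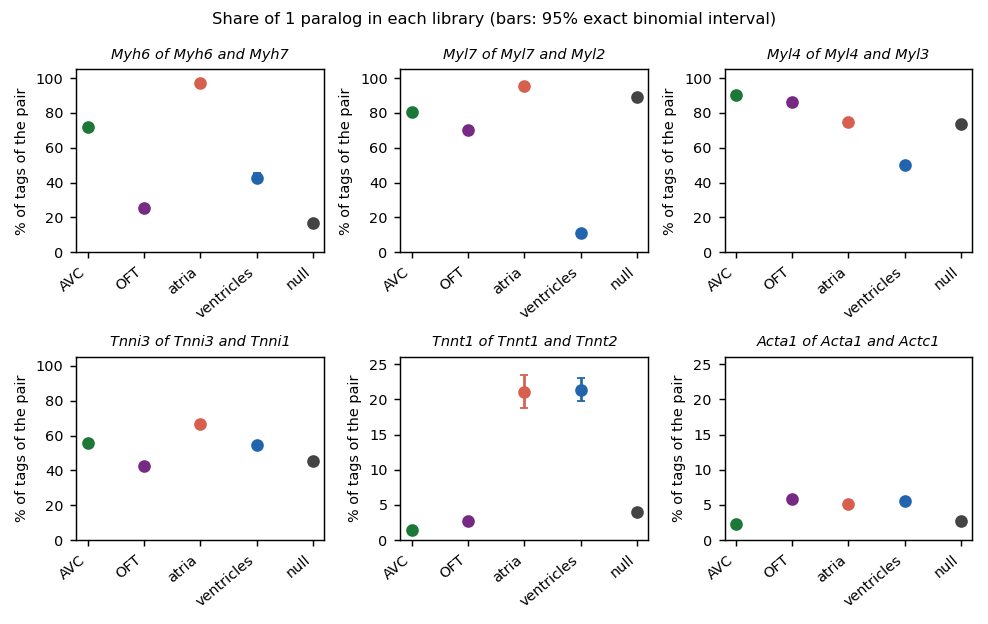
Share of the first-named paralog among the tags of a pair, in percent, for 6 pairs and 5 libraries; points are libraries, bars are 95% exact binomial intervals (mostly smaller than the points) and the axes of the Tnnt1 and Acta1 panels end at 26%. Myh6 ranged from 97.1% in the atria to 25.6% in the OFT and was 16.6% in the Twist1 null AVC.

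Some tags could not be given to 1 paralog. Myh6 and Myh7 shared 8 tag types, which summed to 249 TPM in the AVC and 231 TPM in the OFT, and to 8.36 TPM in the atria and 13.02 TPM in the ventricles. A tag shared by Tpm1 and Tpm2 was at 102 TPM in the AVC, 177.5 TPM in the OFT and 2.604 TPM in the ventricles. Tag types 1 base from a leading tag and matching no gene were also left out, and they were not rare. For Myl2 in the ventricles they amounted to 34.3% of the leading tag, and for Myl4 to 38.1% in the atria, 30.1% in the AVC and 18.75% in the OFT.

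The Twist1 null AVC was compared with the wild-type AVC to see what changes without Twist1. Twist1 itself was at 918 TPM in the AVC, 299 TPM in the OFT, 63.4 TPM in the atria and 55.9 TPM in the ventricles and at 4.55 TPM in the null AVC, as its label says. Of 32 sarcomere genes tested, 1 was called higher and 6 lower in the null AVC (edgeR exact test, unadjusted p under 0.05), where 11.9% of all 12963 genes tested were called higher and 12.7% lower. The sarcomere median was -0.37 and that of all genes -0.16 on the log2 scale. With TMM the calls were 1 higher and 5 lower, against 14.9% and 9.36% of all genes.

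Alpha myosin heavy chain changed most. Myh6 had 16382 tags in the AVC and 3757 in the deeper null library. Myh6 was thus at 2696 TPM (95% exact binomial interval 2655 to 2738) against 290 TPM (280 to 299). It was 9.31-fold lower (p = 3.7e-05, edgeR exact test) and was called under every alternative, with a Benjamini-Hochberg adjusted p of 0.0031. Myh7 did not pass the test, at 1057 TPM in the AVC and 1454 TPM in the null AVC (log2 ratio 0.46). Myh6 accordingly fell from 71.8% of heavy chain tags in the AVC to 16.6% (95% exact binomial interval 16.1 to 17.1) in the null AVC, below its share in the OFT.

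The other genes called lower were not of 1 filament. Myoz2 was at 16.1 TPM in the AVC and 2.16 TPM in the null AVC, on 98 and 28 tags, and was 7.48-fold lower (edgeR exact test, Benjamini-Hochberg adjusted p = 0.014). Smpx was 3.61-fold lower (44.3 to 12.3 TPM), the small heat shock protein Cryab 3.59-fold (555 to 154 TPM), Tpm1 3.40-fold (2650 to 780 TPM) and Csrp3 2.94-fold (382 to 130 TPM). These 4 did not hold after adjustment, and Csrp3 was also lost with TMM. Tcap was called higher on 15 tags against none in the AVC. No fold is given, since a gene at 0 could have up to 5 tags of each of its tag types.

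With tags of all sites counted, the remaining filament genes were not called. Tnni1 was at 796 TPM in the AVC and 1565 TPM in the null AVC (log2 ratio 0.98, p = 0.18 by the edgeR exact test), and Myl4 at 3753 and 1931 TPM (log2 ratio -0.96, p = 0.19). Myl2 was at 1067 and 419 TPM (log2 ratio -1.35, p = 0.065, exact test). Tnni3 was 55.8% of troponin I tags in the AVC and 45.2% in the null AVC, Myl7 was 80.3% and 89.0% of regulatory light chain tags, and Myl4 was 90.2% and 73.7% of essential light chain tags. Each pair of intervals was apart, but they cover counting error only.

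**Figure D4:**
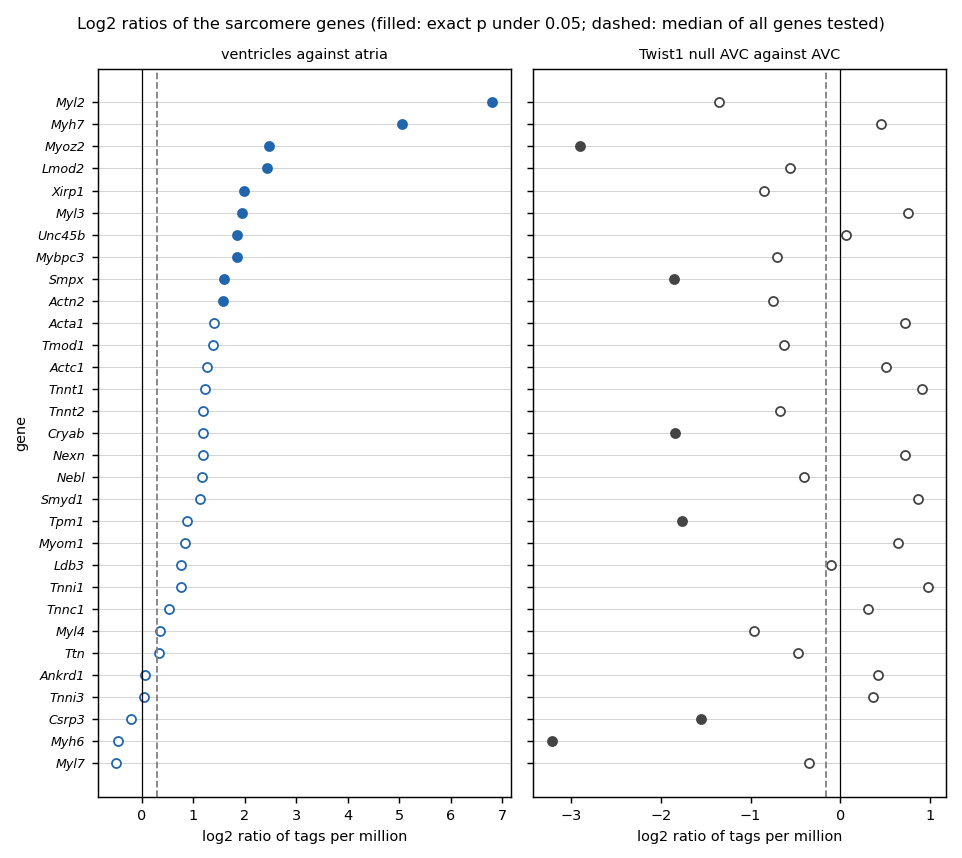
Log2 ratio of TPM for each of 31 sarcomere genes in the ventricles against the atria (left) and in the Twist1 null AVC against the wild-type AVC (right); filled points had an exact p under 0.05 and the dashed line is the median of all genes tested (0.31 and -0.16). Myl2 and Myh7 stood apart on the left, and Myh6 lay lowest on the right at -3.22; Tcap had no tag in the AVC and is not drawn.

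Several measures that were not of the sarcomere moved with the null comparison. The cushion mesenchyme markers summed to 3504 TPM in the AVC and 1075 TPM in the null AVC, with none of the 12 at 0 in either. Haemoglobin was 0.242% of tags in the AVC and 2.73% in the null AVC, with the erythroid markers at 2428 and 27358 TPM. The 7 smooth muscle markers summed to 520 and 1053 TPM, but of the 3 most abundant only Acta2 was higher in the null AVC (120 and 716 TPM), with Tagln at 172 and 113 TPM and Cnn1 at 201 and 192 TPM. The 12 endothelial markers summed to 604 and 655 TPM. The epicardium markers summed to 303 and 221 TPM. The list of 11 cardiomyocyte markers, led by Atp2a2 and holding 1 gene of the sarcomere list (Csrp3), summed to 2004 and 1901 TPM. Its more abundant genes moved both ways. Atp2a2 (1006 to 1207 TPM) and Ryr2 (112 to 171 TPM) were higher in the null AVC. Hspb7 (240 to 84.4 TPM), Csrp3 (382 to 130 TPM) and Pln (145 to 130 TPM) were lower. Tags with T as their first base after CATG were 15.9% of the tags of other genes in the AVC and 34.8% in the null AVC. The part of these in the sarcomere calls was not tested.

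Tags of sarcomere genes came more often from upstream NlaIII sites in the null library than in the wild-type libraries. A tag at the last site of any transcript of its gene was counted as last. Upstream of the last site lay 17.1% of sarcomere tags in the null AVC, but 5.38% for the wild-type AVC, 5.50% for the OFT, 1.35% for the atria and 1.58% for the ventricles. Myl7 gave 28577 of the upstream sarcomere tags in the null AVC, and Actc1 gave 10650. For other genes without haemoglobin the shares were between 28.1% and 32.4% in the wild-type libraries and 34.4% in the null AVC. The second-site tags of the genes with the clearest changes, chosen after their values were seen, were these, with the NlaIII site in capitals.
Myl7: CATGacccaggcagacaagtt
Myl2: CATGtttgagcagacccagat
Tnnc1: CATGaaggacggtgacaagaa
They lay in coding sequence at chr11:5897139-5897159 (minus strand), chr5:122101802-122101822 (plus strand) and chr14:31211370-31211390 (plus strand).

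The second-site tag of Myl7 was at 24.0 TPM in the AVC, 26.01 TPM in the OFT, 8.79 TPM in the atria, 8.52 TPM in the ventricles and 2161 TPM in the null AVC. Its leading tag was at 4303 TPM in the AVC and 1203 TPM in the null AVC. For Myl2 the second-site tag was at 2.63 TPM in the AVC and 202 TPM in the null AVC, with the leading tag at 1064 and 207 TPM. For Tnnc1 the second-site tag was at 6.75 and 269 TPM. In these 3 genes the null library thus differed from the AVC library in where tags were cut as well as in how many there were. Of 30 sarcomere genes with at least 50 tags in both AVC libraries, 19 (63.3%) had a higher upstream share in the null library, against 51.2% of 8065 genes. Genes with equal shares counted as not higher. Over the 8065 genes the median upstream share was 12.5% in the AVC and 21.7% in the null AVC. A rise in upstream share was therefore not particular to sarcomere genes. The reason for the difference was not tested, and strain, genotype and library cannot be told apart.

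Site use also varied for other genes. Ttn had 73.1% of its tags upstream in the null AVC, with 40.7% for the wild-type AVC, 45.9% for the OFT, 17.8% for the atria and 11.9% for the ventricles. Unc45b had 76.6% upstream in the AVC and 41.9% in the null AVC, and Nexn, an actin-binding Z-disc protein, 47.65% and 16.15%. Nebl had at least 99.76% of its tags upstream in every library. Counting the last site alone, Myl2, Myl7 and Ttn were also called lower in the null AVC by the edgeR exact test, with log2 ratios of -2.36, -1.84 and -1.61. The calls were then 9 lower and 0 higher of 31 sarcomere genes, against 17.3% and 13% of all genes. That count left Myh6 at 16.0% of heavy chain tags in the null AVC and lowered Myl7 to 85.3% of regulatory light chain tags there.

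**Figure D5:**
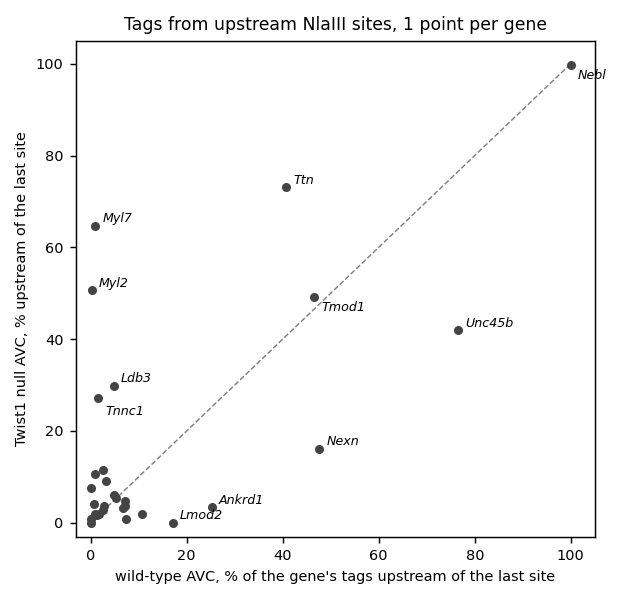
Share of the tags of a gene that came from NlaIII sites upstream of the last site, in percent, in the wild-type AVC (x axis) and the Twist1 null AVC (y axis); each point is 1 of the 30 sarcomere genes with at least 50 tags in both, and the dashed line marks equal shares. Myl7 was at 0.895% and 64.7% and Myl2 at 0.247% and 50.7%, while Unc45b and Nexn lay below the line.

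Among stress-responsive and assembly genes, the summed level of Ankrd1 was similar across the wild-type regions, with unmatched tags 1 base from its leading tag left out. Most of its tags were of 1 tag type that starts with T after CATG. Ankrd1, a titin-associated repeat protein, was at 284 TPM in the AVC, 262 TPM in the OFT, 253 TPM in the atria, 264 TPM in the ventricles and 382 TPM in the null AVC. Smyd1, a methyltransferase needed for myofibril assembly, was at 285 TPM, 388 TPM, 211 TPM, 463 TPM and 520 TPM in that order. Cryab was at 555 TPM, 674 TPM, 329 TPM and 753 TPM in the wild-type libraries. Ankrd1, Smyd1 and Cryab were not called in any comparison of wild-type libraries with the main settings. Without tags starting with T, Ankrd1 was called in the AVC, OFT and chamber comparisons. With dispersion 0.05, Smyd1 and Cryab were called between ventricles and atria. Ldb3, a Z-disc protein that binds alpha-actinin, was at 651 TPM, 645 TPM, 203 TPM, 344 TPM and 604 TPM, and was not called in any of the 5 comparisons.

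A second list of 54 sarcomere and Z-disc genes, of which 42 had tags, was counted for context. 18 of 40 tested were called higher and 3 lower in the AVC than in the chambers, where 43.4% and 8.12% of all genes were called. In the OFT 21 and 4 of 40 were called (edgeR exact test), against 40.6% and 8.88% of all genes. With TMM the list had 10 higher and 5 lower calls in the AVC and 9 and 6 in the OFT, against 25.6% and 17.5%, and 26.2% and 17.7%, of all genes. The intermediate filament Des was at 233 TPM in the AVC, 352 TPM in the OFT, 8.79 TPM in the atria and 31.5 TPM in the ventricles, and the chaperone Hspb7 at 240 TPM, 254 TPM, 2.79 TPM and 16.6 TPM. Tpm4 and Pdlim3 were also called higher in both, at 231 and 192 TPM in the AVC against no more than 30.5 and 14.9 TPM in a chamber. Pdlim7 ran the other way in the AVC, at 241 TPM in the AVC and 606 and 838 TPM in the atria and ventricles. The abundant tropomyosin Tpm3 was at 667 TPM in the AVC and 1001 TPM in the OFT against 178 TPM and 236 TPM in the atria and ventricles. Of the other abundant genes of this list, Tpm2, Hspb2, Fhl2, Synpo2l and Bag3 were called higher in the AVC, at between 82.0 and 320 TPM there, and Hspb1, Trim55 and Pdlim5 were not, at 549, 292 and 538 TPM. Between ventricles and atria 3 of 37 were called higher and 4 lower, against 11.1% and 9.03% of all genes. Between OFT and AVC these counts were 3 and 6 of 41, against 5.22% and 7.35% of all genes. Myl1, a skeletal essential light chain, was at 818 TPM in the AVC and 180 TPM in the OFT, 4.54-fold lower in the OFT (p = 0.0036, exact test).

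In the null AVC 5 of 39 genes of the second list were called higher and 6 lower, where 11.9% and 12.7% of all genes were called. Smooth muscle actin Acta2 was 5.98-fold higher, at 120 TPM in the AVC and 716 TPM in the null AVC (p = 7.1e-04, edgeR exact test), and Flnc, an actin cross-linker, 4.07-fold higher (40.7 to 165 TPM). The others higher were Tnni2, Myoz1 and Klhl41, of which Klhl41 had 81 tags against none. Lower were Pdlim3 (192 to 36.8 TPM), Hspb7 (240 to 84.4 TPM), Hspb8 (56.1 to 13.02 TPM), Tpm4 (231 to 80.1 TPM), Nrap (12.2 to 2.47 TPM) and Synpo2 (15 tags to none). A tag shared by Acta2, Actb and Lrrc58 stood at 1453 TPM in the AVC and 427 TPM in the null AVC. It could not be given to any of these genes and was not in the Acta2 level.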

How the data were processed

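Tag-seq libraries were made from total RNA of 5 pooled heart samples. Per the labels and the study's methods, the authors digested cDNA on oligo(dT) beads with NlaIII, released tags with MmeI, sequenced them on an Illumina instrument and deposited raw counts of tag types seen more than 5 times. The submitters' processing notes name build mm9.

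Tags were matched here to 33363 RefSeq-linked GENCODE M21 transcripts (GRCm38) with a tail of 20 adenines added. A tag found in sense in transcripts of 1 gene only was counted, and counts were summed per gene. TPM divides by the sum of deposited tags. Tests were two-sided edgeR 4.0.16 exact tests with dispersion 0.12, the value the study states, in R 4.3.3, run over all genes. Counts were also simulated with the dispersion of 0.12 that the test assumes and no overall shift between libraries. Of 200 genes changed 4-fold, 78.5% were called in the AVC comparison and 72% in the null comparison. Of unchanged genes, 4.38% were called in the AVC comparison. The simulation could not check whether that dispersion suits these libraries, since the counts were drawn with it. DESeq2 1.42.0 gave alternative size factors.

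The members and gene lists were chosen with earlier results of these data known. All list genes were named, and others by list, level (at least 100 TPM) or a call in the null comparison. For printed tags the most abundant type was taken.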

Additional observations from a re-analysis of the deposited data

Results flagged for a closer look

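Antisense tags of the sarcomere genes, which no comparison above used, were present in all 5 libraries above the level that a count of 0 allows. They were at 1563.8 TPM in the AVC, 1694.1 TPM in the OFT, 137.36 TPM in the atria, 220.89 TPM in the ventricles and 1537.4 TPM in the Twist1 null AVC. Per 100 sense tags this was 5.41 in the null AVC, with 4.62 for the AVC, 4.65 for the OFT, 1.06 for the atria and 0.704 for the ventricles. Myl4 had the most antisense tags in the AVC, with 1717, and Tnni3 in the null AVC, with 3215. No control library was made for antisense tags, and their origin was not tested.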

How the results depend on the processing

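No paired analysis was possible because each group had 1 library. For the same reason no replicate was left out, and comparing with 1 chamber alone took its place.

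In the AVC comparison, 13 higher calls became 6 with TMM, 6 with DESeq2 size factors and 5 with dispersion 0.4, and 2 lower calls became 6, 6 and 0, and 1 with the totals of all tags, 1 with Benjamini-Hochberg adjustment and 0 against the atria alone. In the OFT comparison, 12 higher calls became 5, 5 and 3 with TMM, DESeq2 and dispersion 0.4, and 0 lower calls became 5, 5 and, against the ventricles alone, 1. In the null comparison, 1 higher call became 2 with dispersion 0.05 and 0 with dispersion 0.4, with Benjamini-Hochberg adjustment, with at least 50 tags per gene, with the last site alone and without tags starting with T; 6 lower calls became 1 with dispersion 0.4, 2 after adjustment, 9 with the last site alone and 12 without tags starting with T. Of all genes in the null comparison, 12.7% were called lower with the main settings. That share was 17.3% with the last site alone, 19.2% without tags starting with T, 2.36% with dispersion 0.4 and 3.93% after adjustment. Between ventricles and atria, 10 higher calls became 19 with dispersion 0.05, 2 with dispersion 0.4 and 2 after adjustment. Of all genes there, 11.1% were called higher, and 19.8%, 4.03% and 3.47% under these settings. Between OFT and AVC, 1 higher call became 2 with TMM, 2 with DESeq2, 3 with all tags, 3 with dispersion 0.05 and 0 with dispersion 0.4 or adjustment; 1 lower call became 0 with all tags, 2 with dispersion 0.05 and 0 with dispersion 0.4 or adjustment. Among all genes in the OFT against AVC comparison, 7.54% were called higher and 5.68% lower with all tags. With dispersion 0.05 these shares were 8.51% and 12%, and after adjustment 1.24% and 1.88%. A count of 0 is of edgeR calls, and the unadjusted counts are those it started from.

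Counting the last site alone gave sums of 3.20% for the AVC, 3.44% for the OFT, 1.28% for the atria, 3.09% for the ventricles and 2.35% for the null AVC, and shares of 16.0% for Myh6, 85.3% for Myl7 and 42.6% for Tnni3 in the null AVC; totals without haemoglobin gave 1.65%, 3.29% and 2.92% in the atria, ventricles and null AVC. Myl2 reversed against the atria alone, to 4.26 in the AVC and 5.02 in the OFT (log2). Without tags starting with T, Ankrd1 (-2.46), Myom1 (-2.58) and Nexn (-1.59) reversed in the null AVC, since the leading tag of each starts with T. Members not called changed sign under some alternative in 13, 12, 5, 2 and 12 cases in the AVC, OFT, null, chamber and OFT against AVC comparisons. The correlation with length was 0.48 to 0.56 in the AVC comparison over the choices of tags.

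The counts of all genes called moved likewise. With TMM and DESeq2, 5427 higher and 1015 lower calls in the AVC became 3206 and 2193, and 3147 and 2238, and 5056 and 1106 in the OFT became 3257 and 2201, and 3240 and 2231. Dispersion 0.4 left 2534 and 338 calls with the AVC and 2420 and 417 with the OFT against the chambers, 506 and 306 for the null, 431 and 458 for the chamber and 309 and 378 for the OFT against AVC comparison. The share of calls that were higher went with TMM from 84.2% to 59.4% in the AVC, from 82.1% to 59.7% in the OFT and from 48.3% to 61.4% in the null comparison.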
